A study of Mus musculus with 9 samples.

Results

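The genes described here encode the machinery that copies DNA, 47 genes of 32107 gene labels tested. They were chosen by name as subunits and regulators of the origin recognition complex (ORC), the helicase and its loaders, the polymerases, and the clamp, single-strand binding and chromatin assembly factors. Each was found on the array as the probe set naming it, and all 47 had exactly 1. The probe set of Mcm7 also names the microRNA genes Mir93 and Mir25, which lie within it, so its values belong to all of them.

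RNA came from pmel1 CD8+ T cells, mouse cells with a transgenic receptor for a peptide of the melanoma protein gp100. Naive congenic mice received these cells, marked with Thy1.1, and then 100 µg of the human form of the peptide. On day 4 the cells were recovered from the spleen of each mouse and sorted as Thy1.1+ CD8+ to a purity over 99%, and each mouse gave 1 array. The combination group of 3 mice was treated with the agonist anti-CD27 antibody AT124 at 200 µg, with anti-PD-1 and anti-PD-L1 at 100 µg of each. The anti-CD27 group (3 mice) had AT124 with 200 µg of isotype control, and the anti-PD-1/L1 group (3 mice) had both blocking antibodies with 200 µg of isotype control. All groups therefore shared the transfer, the peptide and a total of 400 µg of antibody. As a model, the cells carry a single transgenic receptor and were transferred into another mouse, and mice given the peptide with isotype control only are not among the samples. Age and sex of the mice were not given in the sources used here.

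Replication starts at origins bound by ORC, where Cdc6 and Cdt1 load the ring of MCM2 to MCM7 as an inactive helicase. Kinases then attach Cdc45 and the GINS complex, the helicase opens the duplex, and polymerases alpha, delta and epsilon copy it with the help of the PCNA clamp and its loader RFC. Many of these genes are transcribed as cells pass from G1 into S phase, under E2F factors, and CD8+ T cells after antigen divide several times within days. In RNA from many cells at once, fewer cells in S phase and less of the RNA in each cell cannot be told apart.

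Levels are RMA values on the log2 scale, in which a difference of 1 is a doubling. RMA subtracts background, sets probe values to a common distribution and combines the probes of a probe set. Over the tested labels the deposited arrays did not share one distribution, with medians of 3.57 to 3.62 on combination arrays, 3.59 to 3.63 on anti-CD27 arrays and 3.94 to 3.99 on anti-PD-1/L1 arrays. Differences are group means, the first-named group minus the second, with the SE of limma's linear model over the 9 arrays. A gene was called at a Benjamini-Hochberg adjusted p under 0.05 over all 32107 labels. The 3 anti-PD-1/L1 arrays stood apart from the other 6 in background and positive controls. Background control probe sets averaged 3.25 ± 0.04 on combination arrays, 3.27 ± 0.06 on anti-CD27 arrays and 4.06 ± 0.08 on anti-PD-1/L1 arrays (SD, n = 3 each). Positive controls averaged 6.81 ± 0.04 on combination arrays, 6.70 ± 0.02 on anti-CD27 arrays and 5.75 ± 0.19 on anti-PD-1/L1 arrays. For both kinds of control, either group differed from anti-PD-1/L1 with a two-sided exact permutation p of 0.1, and 3 arrays against 3 allow none smaller. All 6 CD8 T cell markers examined were above background in every group, with a summed linear level of 8176 to 8920 in combination mice, 9354 to 9645 in anti-CD27 mice and 3351 to 4817 in anti-PD-1/L1 mice. The 7 lists of markers of other cells each summed to at most 91.3 in combination mice, 91.8 in anti-CD27 mice and 133 in anti-PD-1/L1 mice.

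Cells from the combination had more transcript of the replication machinery than cells from anti-CD27, in every complex examined. Of the 47 genes, 30 rose and 0 fell, where 1.22% of all labels rose and 0.505% fell. The remaining 17 did not pass limma's test. All 47 differences were above 0, and 43 had an unadjusted p under 0.05. The median difference was 0.52 (range 0.15 to 1.30), beside a median of -0.00 over all labels. The 3 combination arrays lay above the 3 anti-CD27 arrays in 46 of the 47 genes, against 12.1% of all labels, and below them in 0, against 8.49%. Pold2, a small subunit of polymerase delta, was the exception.

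**Figure D1:**
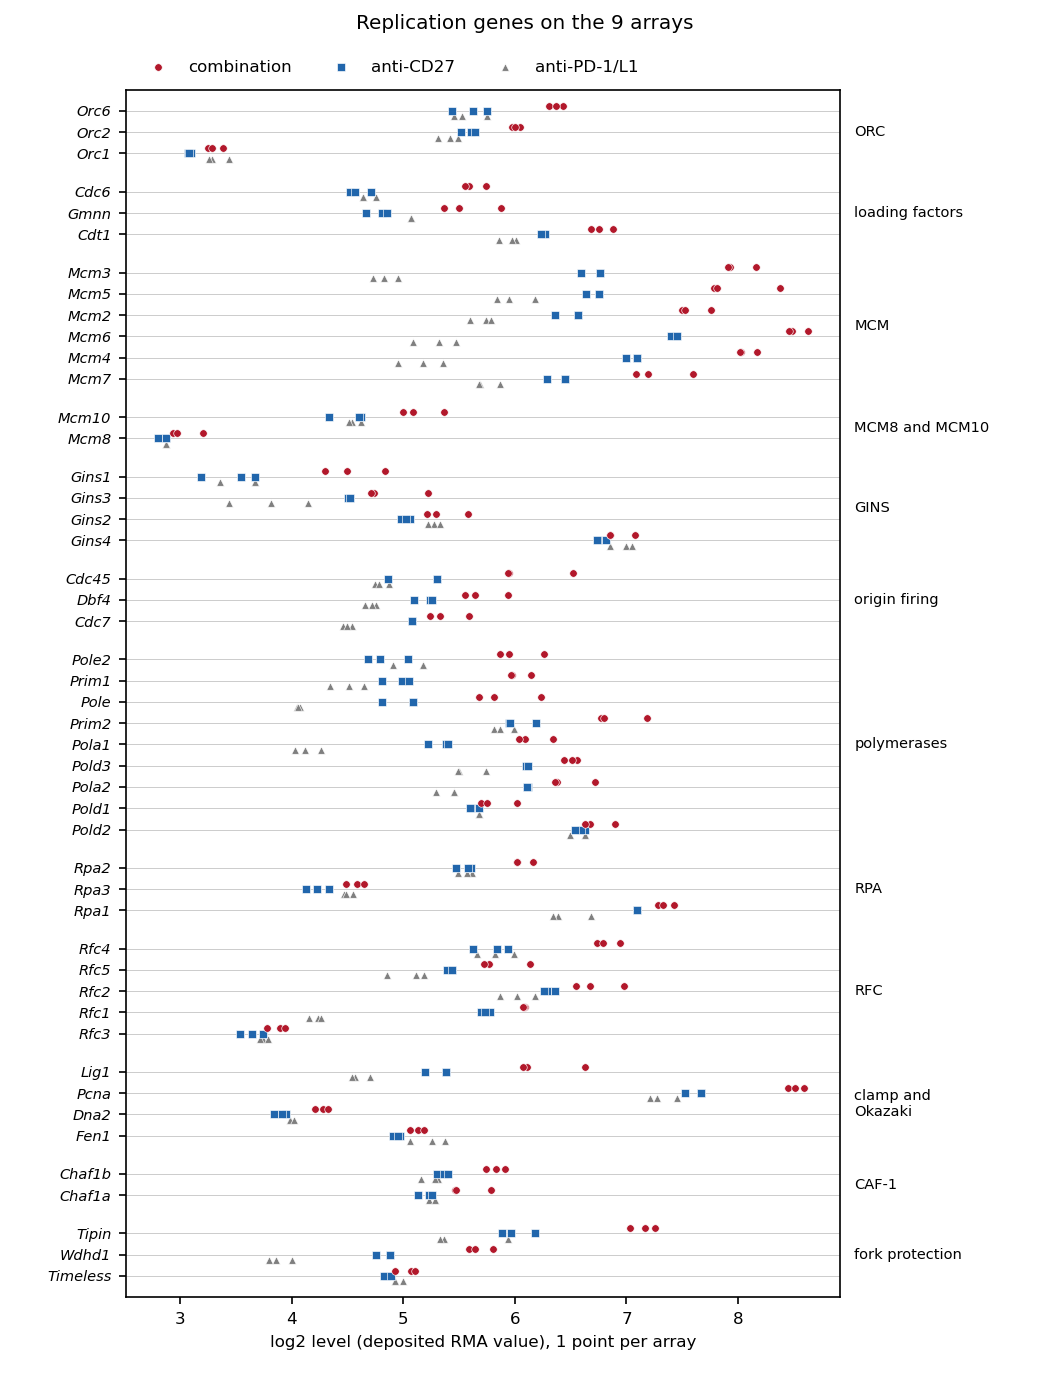
Log2 levels (RMA values, horizontal axis) of the 47 replication genes on each of the 9 arrays, grouped by complex, with 1 point per array: combination (red circles), anti-CD27 (blue squares) and anti-PD-1/L1 (grey triangles). The red points lie to the right of the blue ones in 46 of 47 genes. In the ring of MCM2 to MCM7 the grey points lie to the left of both, farthest for Mcm3, Mcm4 and Mcm6.

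Median differences were largest in the helicase and smallest in RPA, the single-strand binding complex. They ran from 1.09 for MCM2 to MCM7 through 0.84 for the fork protection genes and 0.82 for the polymerases. The loading factor genes Cdc6 and Cdt1, taken with Gmnn, the gene of an inhibitor of Cdt1, had a median of 0.80, the value of Gmnn. The clamp and Okazaki fragment genes had a median of 0.63 and the origin firing genes 0.51. RFC had a median of 0.43, ORC and CAF-1 (a chromatin assembly factor) 0.42 each, MCM8 with MCM10 0.41, GINS 0.36 and RPA 0.34. The spread within a complex was wide, since GINS held both Gins1 at 1.08 and Gins4 at 0.16.

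Combination replicate 3 had the highest value of its group in 43 of 47 genes (91.5%), a share that was 34.2% over all labels. Without that array, 22 genes were called and the median was 0.46, with 0.847% of all labels called, against 1.73% with all arrays. Without replicate 1 or 2 of the combination, 22 and 21 were called (0.81% and 0.645% of all labels). Without replicates 1, 2 or 3 of anti-CD27 the counts were 16, 15 and 24. The share of all labels called fell as well, to 0.511%, 0.564% and 0.922%. The medians of the 47 genes were then 0.52, 0.53 and 0.53. The 14 genes called in every alternative were Mcm2, Mcm3, Mcm4, Mcm5, Mcm6, Pcna, Cdc6, Pola1, Prim1, Pole2, Rfc4, Rpa2, Orc6 and Wdhd1. Positive control probe sets were 0.11 higher in the combination than in anti-CD27, and negative controls differed by -0.14 (exact permutation p = 0.1 for each). Background controls differed by -0.02 (exact permutation p = 0.8). The SD over all tested labels averaged 2.26 on combination arrays and 2.23 on anti-CD27 arrays (exact permutation p = 0.1). The 13 housekeeping genes had a median difference of 0.20, with 1 called (Ppia, higher). At an unadjusted limma p under 0.05, 6 of these 13 were higher and 0 lower. Of the 38 markers of T cells and other cell types, 0 passed limma's test in this comparison, and 3 had an unadjusted p under 0.05. The summed monocyte and macrophage markers were at 83.6 to 91.3 in the combination and 75.4 to 76.5 in anti-CD27, with 1 of 5 (Cd68) above background and the defining markers Csf1r, Lyz2, Adgre1 and Cd14 below it. The part of these measures in the rise of the replication genes was not tested.

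**Figure D2:**
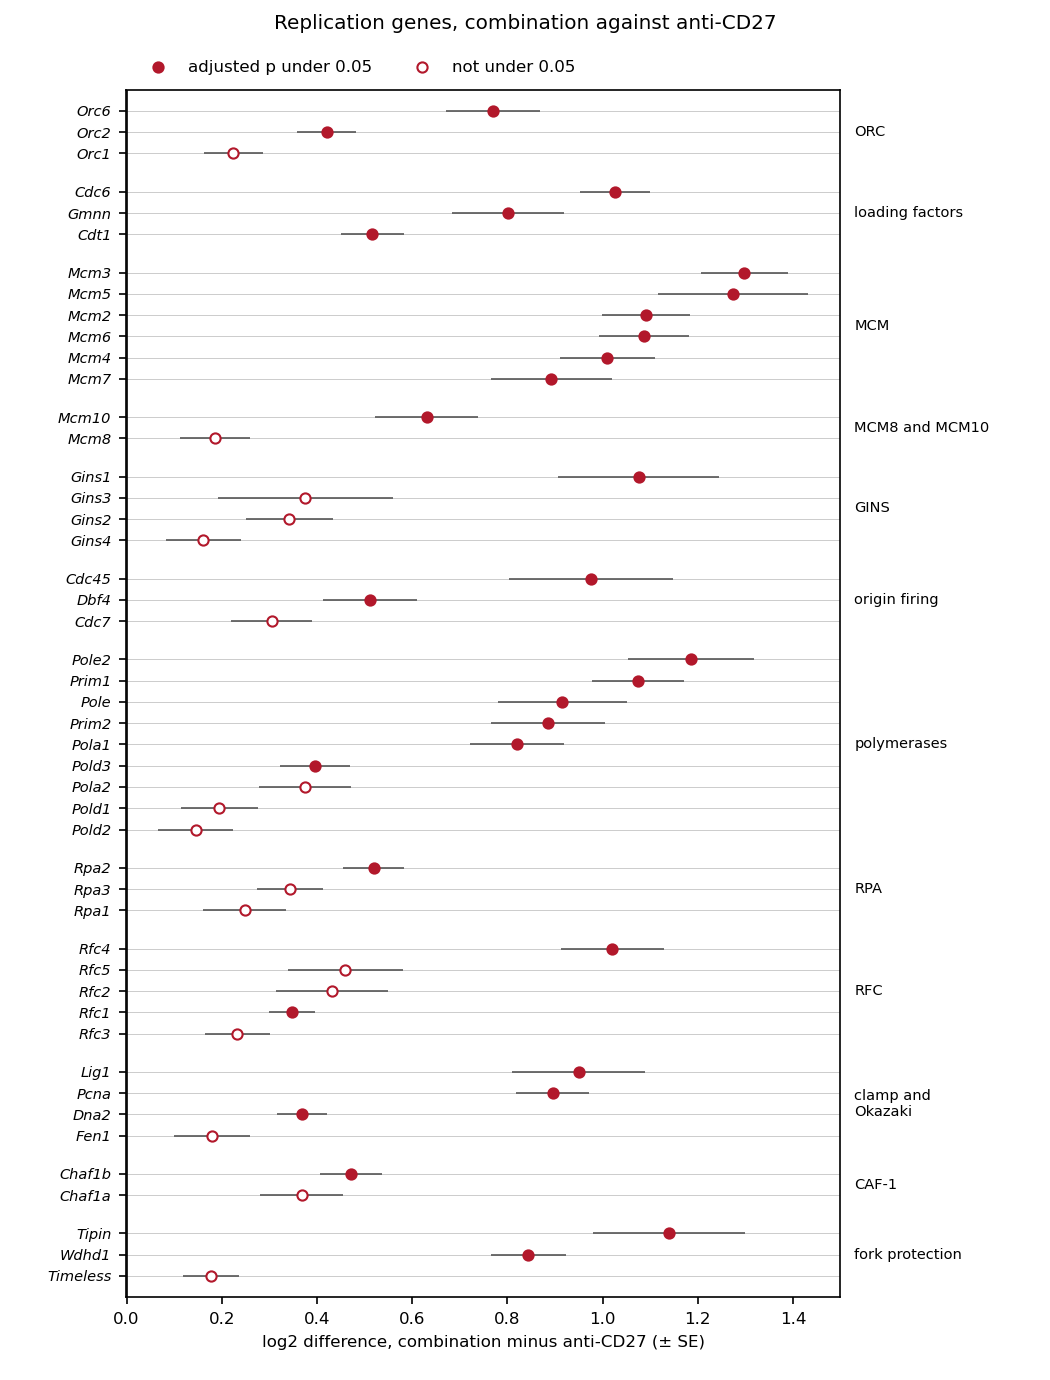
Difference of group means for each replication gene, combination minus anti-CD27, on the log2 scale (horizontal axis), with bars of 1 SE from limma. Filled points passed an adjusted p of 0.05 (30 genes) and open points did not (17 genes), and every point lies above 0.

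To show what the regulatory sequence of these genes looks like, 6 promoters are printed, from 250 bases before to 50 bases after the annotated start, as RefSeq gives them on GRCm38.p6. Capitals mark E2F-type cores, searched on both strands in the form TTCCCGC, the form TTCGCGC, the form TTGCCGC and the form TTGGCGC, with overlapping matches counted each. Mcm3 (chr1:20820263-20820562 (- strand)), Mcm6 (chr1:128359656-128359955 (- strand)), Cdc6 (chr11:98907901-98908200 (+ strand)) and Pole2 (chr12:69228141-69228440 (- strand)) rose in the combination and hold a core. Pcna (chr2:132253131-132253430 (- strand)) rose and holds none of these letters in the window, and Pold1 (chr7:44548766-44549065 (- strand)) did not pass the test and holds one.
Mcm3: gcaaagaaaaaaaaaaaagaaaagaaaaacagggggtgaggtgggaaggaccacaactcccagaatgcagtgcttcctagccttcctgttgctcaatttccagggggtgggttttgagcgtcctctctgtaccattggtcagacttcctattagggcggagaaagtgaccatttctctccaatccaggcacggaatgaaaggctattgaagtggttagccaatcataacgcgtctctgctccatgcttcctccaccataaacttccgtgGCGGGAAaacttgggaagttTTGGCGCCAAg
Mcm6: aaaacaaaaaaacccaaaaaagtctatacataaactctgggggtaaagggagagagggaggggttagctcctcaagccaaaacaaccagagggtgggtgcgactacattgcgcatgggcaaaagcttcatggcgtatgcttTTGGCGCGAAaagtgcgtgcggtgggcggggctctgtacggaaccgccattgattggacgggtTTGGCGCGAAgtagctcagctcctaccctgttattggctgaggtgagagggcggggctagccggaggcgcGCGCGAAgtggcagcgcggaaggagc
Cdc6: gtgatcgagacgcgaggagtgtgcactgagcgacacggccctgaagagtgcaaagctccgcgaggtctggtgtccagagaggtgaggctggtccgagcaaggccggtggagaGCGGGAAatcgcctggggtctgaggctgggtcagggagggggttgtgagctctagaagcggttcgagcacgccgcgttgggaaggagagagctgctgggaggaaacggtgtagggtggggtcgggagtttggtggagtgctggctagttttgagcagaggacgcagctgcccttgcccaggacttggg
Pole2: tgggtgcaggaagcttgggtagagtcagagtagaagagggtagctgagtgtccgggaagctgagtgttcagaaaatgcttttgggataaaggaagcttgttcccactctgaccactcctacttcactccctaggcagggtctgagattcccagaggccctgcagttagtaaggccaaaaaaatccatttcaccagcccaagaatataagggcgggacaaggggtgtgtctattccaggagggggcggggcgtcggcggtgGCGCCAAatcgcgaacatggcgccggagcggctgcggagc
Pcna: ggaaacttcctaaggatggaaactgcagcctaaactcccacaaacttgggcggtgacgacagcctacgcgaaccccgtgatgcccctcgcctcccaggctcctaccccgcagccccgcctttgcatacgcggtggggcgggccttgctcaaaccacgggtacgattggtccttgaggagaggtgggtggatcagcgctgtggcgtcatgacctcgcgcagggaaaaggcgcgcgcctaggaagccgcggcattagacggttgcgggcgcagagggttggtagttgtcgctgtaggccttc
Pold1: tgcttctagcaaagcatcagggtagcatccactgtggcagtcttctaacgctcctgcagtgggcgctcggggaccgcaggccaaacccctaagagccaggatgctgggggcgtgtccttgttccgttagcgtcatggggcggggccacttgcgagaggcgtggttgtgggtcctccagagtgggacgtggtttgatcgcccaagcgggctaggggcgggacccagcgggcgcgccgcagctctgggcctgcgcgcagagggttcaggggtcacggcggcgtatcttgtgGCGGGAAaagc

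RefSeq promoters were at hand for 38 of the 47 genes. An E2F-type core was in 23 of the 38 (60.5%), against 9.69% of the first-listed promoters of 27025 genes. The share was 62.5% (15 of 24) in genes that rose in the combination against anti-CD27 and 57.1% (8 of 14) in those that did not pass. Mcm6 held 5 cores, of which the pairs at -109 and -106 and at -46 and -43 overlap on opposite strands, with the fifth at 25, counted from the first base of the core with the start as 1. Of 42 cores in the 38 promoters, 30 began at -60 or later. The CCAAT box, the letters bound by NF-Y, was in 57.9% of the replication promoters and 37.9% of all, and the TTTGAA element of late cell cycle genes in 15.8% and 18.1%. Median GC content was 62.7% in the replication promoters and 52.7% in all, and the cores themselves are rich in G and C. These matches describe letters in a window and no binding was measured.

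Origin recognition was represented by 3 genes, of which 2 rose in the combination and Orc1 did not pass. Orc6, the smallest subunit of the complex, was at 6.43, 6.31 and 6.37 in combination mice, 5.62, 5.44 and 5.75 in anti-CD27 mice, and 5.75, 5.53 and 5.46 in anti-PD-1/L1 mice. Its combination arrays lay above all 6 others, and the anti-CD27 and anti-PD-1/L1 arrays overlapped. The difference from anti-CD27 was 0.77 ± 0.10 (adjusted p = 0.00823). Orc2, a core subunit, rose by 0.42 ± 0.06 (adjusted p = 0.0136). Orc1, the ATPase that starts the assembly, was at 3.25, 3.29 and 3.38 in combination mice, 3.08, 3.10 and 3.08 in anti-CD27 mice, and 3.29, 3.26 and 3.44 in anti-PD-1/L1 mice. Its anti-CD27 and anti-PD-1/L1 means lay below the background controls of those groups, so that the difference of 0.22 ± 0.06 (adjusted p = 0.157) involves a level that was not measured above background.

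The genes of the loading factors and their control rose in 3 of 3 cases. Cdc6, the ATPase that brings the helicase to ORC, was at 5.59, 5.55 and 5.74 in combination mice, 4.71, 4.52 and 4.57 in anti-CD27 mice, and 4.75, 4.64 and 4.64 in anti-PD-1/L1 mice. The combination arrays were the highest, and the other groups overlapped. The rise over anti-CD27 was 1.03 ± 0.07 (adjusted p = 0.000749), or 2.04-fold. Gmnn, which encodes geminin, the inhibitor of Cdt1, rose by 0.80 ± 0.12 (adjusted p = 0.0136). Cdt1, the partner of Cdc6, had the smallest rise of the group, 0.52 ± 0.07 (adjusted p = 0.00823), with levels of 6.75, 6.68 and 6.88 in combination mice, 6.25, 6.27 and 6.23 in anti-CD27 mice, and 5.86, 6.01 and 5.98 in anti-PD-1/L1 mice. No arrays of different groups overlapped for Cdt1, and the order was combination, anti-CD27, anti-PD-1/L1.

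The 6 genes of the MCM2 to MCM7 ring, the core of the replicative helicase, rose in 6 of 6 cases, by between 0.89 and 1.30. Mcm3 was at 7.93, 7.91 and 8.16 in combination mice, 6.76, 6.59 and 6.76 in anti-CD27 mice, and 4.83, 4.73 and 4.95 in anti-PD-1/L1 mice. The 3 groups were fully separated, and the rise over anti-CD27 was 1.30 ± 0.09 (adjusted p = 0.000749). Mcm5 was at 7.78, 7.81 and 8.37 in combination mice, against 6.75, 6.64 and 6.75 in anti-CD27 mice, with replicate 3 of the combination well above the other 2, and rose by 1.27 ± 0.16 (adjusted p = 0.00725). Mcm2 rose by 1.09 ± 0.09 (adjusted p = 0.00148), Mcm6 by 1.09 ± 0.09 (adjusted p = 0.00155) and Mcm4 by 1.01 ± 0.10 (adjusted p = 0.00269). The probe set of Mcm7, shared with its microRNAs, had the smallest rise of the ring, 0.89 ± 0.13 (adjusted p = 0.0122), at 7.19, 7.08 and 7.60 in combination mice, against 6.45, 6.29 and 6.45 in anti-CD27 mice. The groups did not overlap in any gene of the ring.

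Of the remaining MCM relatives, Mcm10, which helps to activate the loaded helicase, rose by 0.63 ± 0.11 (adjusted p = 0.0275) and was at 5.001, 5.08 and 5.36 in combination mice, 4.62, 4.33 and 4.60 in anti-CD27 mice, and 4.54, 4.52 and 4.62 in anti-PD-1/L1 mice. Combination arrays were above the rest and the other groups overlapped. Mcm8, known for a role in recombination repair rather than in origin firing, was at 2.93, 2.97 and 3.21 in combination mice, 2.88, 2.88 and 2.81 in anti-CD27 mice, and 2.88, 2.88 and 2.88 in anti-PD-1/L1 mice. All of these means lay below the background controls of their groups, and the difference of 0.19 ± 0.07 did not pass (adjusted p = 0.413).

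Genes that turn the loaded ring into a moving helicase behaved unevenly. Cdc45, which joins the ring when an origin fires, was at 5.95, 5.94 and 6.52 in combination mice, 5.31, 4.86 and 5.31 in anti-CD27 mice, and 4.75, 4.87 and 4.79 in anti-PD-1/L1 mice. Combination replicate 3 stood above the other combination arrays, anti-CD27 replicate 2 stood below the other anti-CD27 arrays, and anti-CD27 overlapped anti-PD-1/L1. The rise was 0.98 ± 0.17 (adjusted p = 0.0303). Dbf4, the activating partner of the Cdc7 kinase, rose by 0.51 ± 0.10 (adjusted p = 0.0435). Cdc7 itself was at 5.24, 5.33 and 5.59 in combination mice, 5.08, 5.08 and 5.08 in anti-CD27 mice, and 4.54, 4.46 and 4.50 in anti-PD-1/L1 mice and did not pass (0.31 ± 0.09, adjusted p = 0.161), although the groups did not overlap.

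GINS, the 4-subunit partner of Cdc45, had 1 gene that rose and 3 that did not pass. Gins1 was at 4.49, 4.30 and 4.84 in combination mice, 3.54, 3.19 and 3.67 in anti-CD27 mice, and 3.68, 3.36 and 3.68 in anti-PD-1/L1 mice. The combination arrays were the highest and the rise over anti-CD27 was 1.08 ± 0.17 (adjusted p = 0.0180). Gins4 was at 6.85, 6.85 and 7.08 in combination mice, 6.74, 6.74 and 6.81 in anti-CD27 mice, and 6.997, 6.85 and 7.05 in anti-PD-1/L1 mice. Its anti-PD-1/L1 arrays overlapped those of the combination, and the difference from anti-CD27 was 0.16 ± 0.08 (adjusted p = 0.605). Gins2 and Gins3 differed by 0.34 ± 0.09 and 0.38 ± 0.18 without passing.

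Among 9 polymerase genes, 6 rose and 3 did not pass. Pole2, the second subunit of the leading strand polymerase epsilon, was at 5.87, 5.94 and 6.26 in combination mice, 4.79, 4.69 and 5.04 in anti-CD27 mice, and 5.18, 5.18 and 4.91 in anti-PD-1/L1 mice. The combination arrays lay above the rest, and the other groups overlapped. Its rise of 1.19 ± 0.13 (adjusted p = 0.00517), 2.28-fold, was beside that of Pole, the catalytic subunit (0.92 ± 0.14 (adjusted p = 0.0143)). Both primase genes rose, Prim1, the catalytic subunit that makes RNA primers, by 1.07 ± 0.10 (adjusted p = 0.00185) and Prim2 by 0.89 ± 0.12 (adjusted p = 0.00966). Pola1, the catalytic subunit of polymerase alpha, rose by 0.82 ± 0.10 (adjusted p = 0.00665), while its accessory subunit Pola2 did not pass (0.37 ± 0.10 (adjusted p = 0.127)).

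The lagging strand polymerase delta differed least. Pold3, an accessory subunit, rose by 0.40 ± 0.07 (adjusted p = 0.0366). Pold1, the catalytic subunit, differed by 0.20 ± 0.08 (adjusted p = 0.455). Pold2 was at 6.67, 6.63 and 6.90 in combination mice, 6.63, 6.59 and 6.54 in anti-CD27 mice, and 6.63, 6.63 and 6.49 in anti-PD-1/L1 mice. This was the gene with overlapping combination and anti-CD27 arrays, and the difference of 0.15 ± 0.08 (adjusted p = 0.704) was within the spread.

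The 3 RPA genes encode the complex that coats single-stranded DNA. Rpa2, the middle subunit and a target of checkpoint kinases, was at 6.02, 6.02 and 6.16 in combination mice, 5.47, 5.60 and 5.58 in anti-CD27 mice, and 5.61, 5.57 and 5.49 in anti-PD-1/L1 mice. Its combination arrays were above the others, which overlapped, and it rose by 0.52 ± 0.06 (adjusted p = 0.00725). Rpa1, the large DNA-binding subunit, was at 7.28, 7.32 and 7.43 in combination mice, 7.10, 7.10 and 7.10 in anti-CD27 mice, and 6.68, 6.39 and 6.34 in anti-PD-1/L1 mice and did not pass (0.25 ± 0.09 (adjusted p = 0.323)). The anti-CD27 values of Rpa1 were identical on 3 arrays, and identical values of this kind are taken up with the processing. Rpa3, the smallest subunit, lay at the threshold (0.34 ± 0.07 (adjusted p = 0.0505)).

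RFC loads the PCNA clamp, and 2 of its 5 genes rose. Rfc4, a small subunit, was at 6.74, 6.79 and 6.94 in combination mice, 5.84, 5.63 and 5.94 in anti-CD27 mice, and 5.82, 5.66 and 5.996 in anti-PD-1/L1 mice. The combination arrays were the highest, and the other groups overlapped. It rose by 1.02 ± 0.11 (adjusted p = 0.00393). Rfc1, the large subunit, rose by 0.35 ± 0.05 (adjusted p = 0.0112). The smallest difference was that of Rfc3, with 3.90, 3.78 and 3.94 in combination mice, 3.74, 3.64 and 3.53 in anti-CD27 mice, and 3.74, 3.72 and 3.79 in anti-PD-1/L1 mice, where the combination lay just above anti-CD27 and overlapped anti-PD-1/L1 (0.23 ± 0.07 (adjusted p = 0.189)). Rfc2 and Rfc5 differed by 0.43 ± 0.12 and 0.46 ± 0.12 without passing.

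The clamp and the enzymes that finish Okazaki fragments rose in 3 of 4 genes. Pcna, the sliding clamp that holds polymerases on DNA, was at 8.45, 8.51 and 8.59 in combination mice, 7.66, 7.53 and 7.66 in anti-CD27 mice, and 7.45, 7.21 and 7.28 in anti-PD-1/L1 mice. No groups overlapped, and the rise over anti-CD27 was 0.90 ± 0.08 (adjusted p = 0.00151). Lig1, the ligase that seals the fragments, had the largest rise of these genes, 0.95 ± 0.14 (adjusted p = 0.0138), at 6.11, 6.08 and 6.63 in combination mice, 5.38, 5.20 and 5.38 in anti-CD27 mice, and 4.57, 4.70 and 4.54 in anti-PD-1/L1 mice. Its groups were separated, with combination replicate 3 highest. Dna2, a nuclease and helicase for long flaps, rose by 0.37 ± 0.05 (adjusted p = 0.0119). Fen1, the flap endonuclease, was at 5.06, 5.14 and 5.18 in combination mice, 4.97, 4.91 and 4.95 in anti-CD27 mice, and 5.06, 5.38 and 5.25 in anti-PD-1/L1 mice. Its anti-PD-1/L1 arrays overlapped the combination, and the difference from anti-CD27 did not pass (0.18 ± 0.08 (adjusted p = 0.532)).

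CAF-1 places histones on new DNA at the clamp. Its subunit gene Chaf1b was at 5.74, 5.83 and 5.91 in combination mice, 5.30, 5.37 and 5.40 in anti-CD27 mice, and 5.31, 5.16 and 5.28 in anti-PD-1/L1 mice. Combination arrays were the highest and it rose by 0.47 ± 0.06 (adjusted p = 0.0105). Chaf1a, the large subunit, was at 5.46, 5.48 and 5.78 in combination mice, 5.23, 5.13 and 5.25 in anti-CD27 mice, and 5.23, 5.28 and 5.28 in anti-PD-1/L1 mice, with the same order of combination over the rest, and did not pass (0.37 ± 0.09 (adjusted p = 0.0915)).

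The fork protection genes split. Tipin, a stabiliser of stalled forks, was at 7.16, 7.03 and 7.26 in combination mice, 5.96, 5.89 and 6.18 in anti-CD27 mice, and 5.94, 5.37 and 5.33 in anti-PD-1/L1 mice. The combination lay above every other array, and the rise over anti-CD27 was 1.14 ± 0.16 (adjusted p = 0.0114). Its partner Timeless was at 5.07, 4.92 and 5.10 in combination mice, 4.85, 4.83 and 4.89 in anti-CD27 mice, and 4.92, 4.92 and 4.99 in anti-PD-1/L1 mice. Combination and anti-PD-1/L1 overlapped there, and the difference from anti-CD27 was 0.18 ± 0.06 (adjusted p = 0.278). Wdhd1, which links polymerase alpha to the helicase, rose by 0.84 ± 0.08 (adjusted p = 0.00222).

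Other genes of the pathway were read from lists that hold none of the 47. Of 38 further replication factors 14 rose, 0 fell and 24 did not pass, with a median of 0.25, and 1 was lower at an unadjusted p under 0.05. Uhrf1, which recruits the maintenance DNA methyltransferase, rose by 1.07 ± 0.15, and that enzyme's gene Dnmt1 by 0.73 ± 0.09. Hells, a chromatin remodeller, rose by 0.96 ± 0.11. The origin firing factors Ticrr, Mtbp and Topbp1 rose by 0.90 ± 0.18, 0.46 ± 0.06 and 0.65 ± 0.10. Clspn, which carries the fork checkpoint signal, rose by 0.90 ± 0.15. Atad5, which unloads PCNA, rose by 0.90 ± 0.09 and Dscc1, of an alternative clamp loader, by 0.63 ± 0.07. The others were Rnaseh2b, Fbxo5, Cdc25a, Rif1 and Nasp, with rises of 0.51 to 0.87.

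Genes that supply nucleotides rose in 7 of 18 cases and fell in 0, with a median of 0.39. Rrm2, the small subunit of ribonucleotide reductase, was at 7.75, 7.71 and 8.36 in combination mice, 6.59, 6.10 and 6.59 in anti-CD27 mice, and 5.03, 5.03 and 4.88 in anti-PD-1/L1 mice. All 3 groups were separated, and the rise over anti-CD27 was 1.52 ± 0.19 (adjusted p = 0.00798). Rrm1, the large subunit, rose by 1.16 ± 0.18, Tyms, thymidylate synthase, by 0.79 ± 0.12, and Mthfd1, of folate metabolism, by 0.71 ± 0.11. Of 25 genes of E2F and G1/S control 6 rose and 0 fell, with a median of 0.22, and 1 was lower at an unadjusted p under 0.05. They include E2f8, a repressor of the family that is itself an S phase gene (1.08 ± 0.16), the cyclin E genes Ccne1 and Ccne2 (0.79 ± 0.11 and 0.78 ± 0.12) and the kinase gene Cdk6 (0.67 ± 0.08). E2f1, an activator of the family, had a mean of 5.32 ± 0.12 in the combination and 5.11 ± 0.02 in anti-CD27 and did not pass (0.21 ± 0.06 (adjusted p = 0.208)).

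Of 12 replication checkpoint genes, 2 rose and 0 fell, Chek1, the fork checkpoint kinase, by 1.09 ± 0.13 (adjusted p = 0.00565) and Wee1, an inhibitor of cyclin-dependent kinases, by 0.71 ± 0.12 (adjusted p = 0.0210). The G2/M and mitosis list had the highest median of these lists, 0.81. All 26 of its differences were positive and 22 had an unadjusted p under 0.05, while 2 passed after adjustment. Ccnb2, cyclin B2, rose by 1.49 ± 0.24 (adjusted p = 0.0187) and Mybl2, a regulator of mitotic genes, by 0.62 ± 0.12 (adjusted p = 0.0444). Mki67, the proliferation marker, averaged 8.48 ± 0.55 in the combination and 7.40 ± 0.48 in anti-CD27 (SD, n = 3 each), and its difference of 1.08 ± 0.35 did not pass (adjusted p = 0.254). The spread of Mki67 between mice was wide, and its SE was larger than that of any of the 47 replication genes, among which Gins3 had the largest (0.38 ± 0.18).

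**Figure D3:**
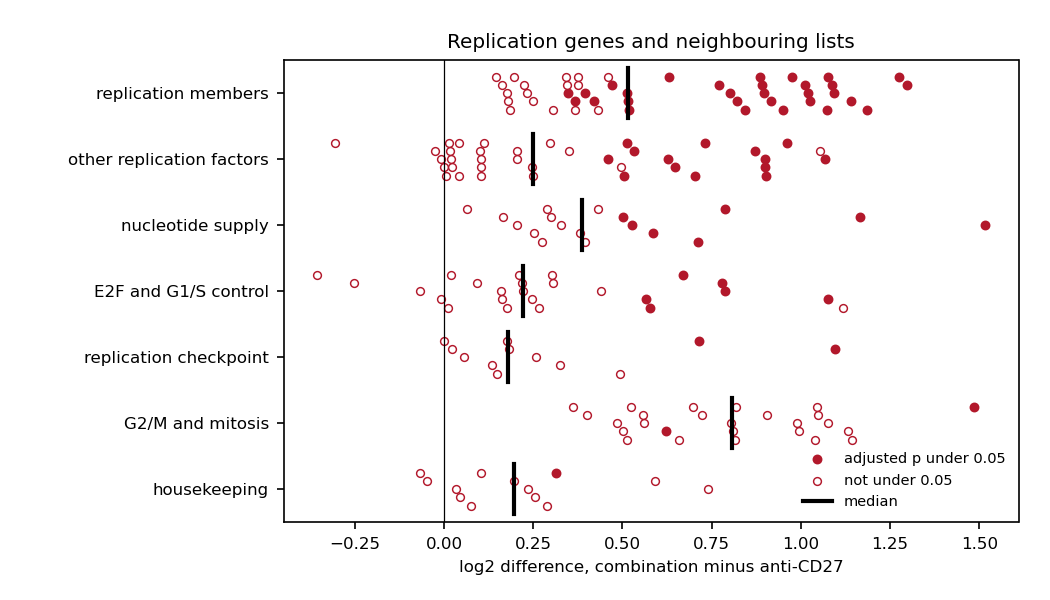
Log2 differences, combination minus anti-CD27 (horizontal axis), of the 47 replication genes and of 6 other lists, 1 point per gene with the median as a bar. Filled points passed an adjusted p of 0.05. The replication genes have more filled points (30 of 47) than the G2/M and mitosis list (2 of 26), whose median of 0.81 is higher than their 0.52 and whose points all lie above 0.

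Against anti-PD-1/L1, the combination showed larger differences, on arrays whose controls also differed. Of the 47 genes 37 rose and 0 fell, also at an unadjusted p under 0.05, where 19.1% of all labels rose and 52.9% fell. The median of the replication genes was 0.93, beside -0.25 over all labels. The groups did not overlap, with the combination higher, in 39 of 47 genes (19% of all labels), and with the combination lower in 0 (54.2%). This comparison and the one above share the combination arrays, so that their values are set side by side and not treated as separate support.

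The MCM ring stood out by size, with a median of 2.45 against anti-PD-1/L1 and 1.09 against anti-CD27. Mcm6 was at 8.48, 8.46 and 8.62 in combination mice, 7.44, 7.40 and 7.45 in anti-CD27 mice, and 5.32, 5.47 and 5.09 in anti-PD-1/L1 mice. Groups were fully separated, and the rise was 3.23 ± 0.09 over anti-PD-1/L1 and 1.09 ± 0.09 over anti-CD27. Mcm3 rose by 3.17 ± 0.09 over anti-PD-1/L1 and Mcm4 by 2.91 ± 0.10 (adjusted p = 1.03e-07). Mcm5, Mcm2 and the Mcm7 probe set rose by 2.00 ± 0.16, 1.88 ± 0.09 and 1.55 ± 0.13.

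Outside the ring, Pola1 rose by 2.02 ± 0.10 and Rfc1 by 1.86 ± 0.05 (adjusted p = 3.75e-08). Rfc1 was at 6.09, 6.08 and 6.07 in combination mice, 5.78, 5.70 and 5.73 in anti-CD27 mice, and 4.24, 4.16 and 4.26 in anti-PD-1/L1 mice, with the combination and anti-CD27 close together and anti-PD-1/L1 far below both. Pole and Wdhd1 were not above the background controls on the anti-PD-1/L1 arrays and rose by at least 1.82 and 1.62 on the log2 scale. The same held for Gins3, Gins1 and Dna2, whose rises were at least 0.79, 0.48 and 0.21. These bounds set each anti-PD-1/L1 array at the higher of its background control mean and the gene's own value. Lig1 rose by 1.67 ± 0.14, Tipin by 1.60 ± 0.16, Prim1 by 1.52 ± 0.10 and Pcna by 1.20 ± 0.08. The 10 genes that did not pass were Mcm8, Gins2, Gins4, Pold1, Pold2, Rfc3, Rpa3, Fen1, Orc1 and Timeless.

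**Figure D4:**
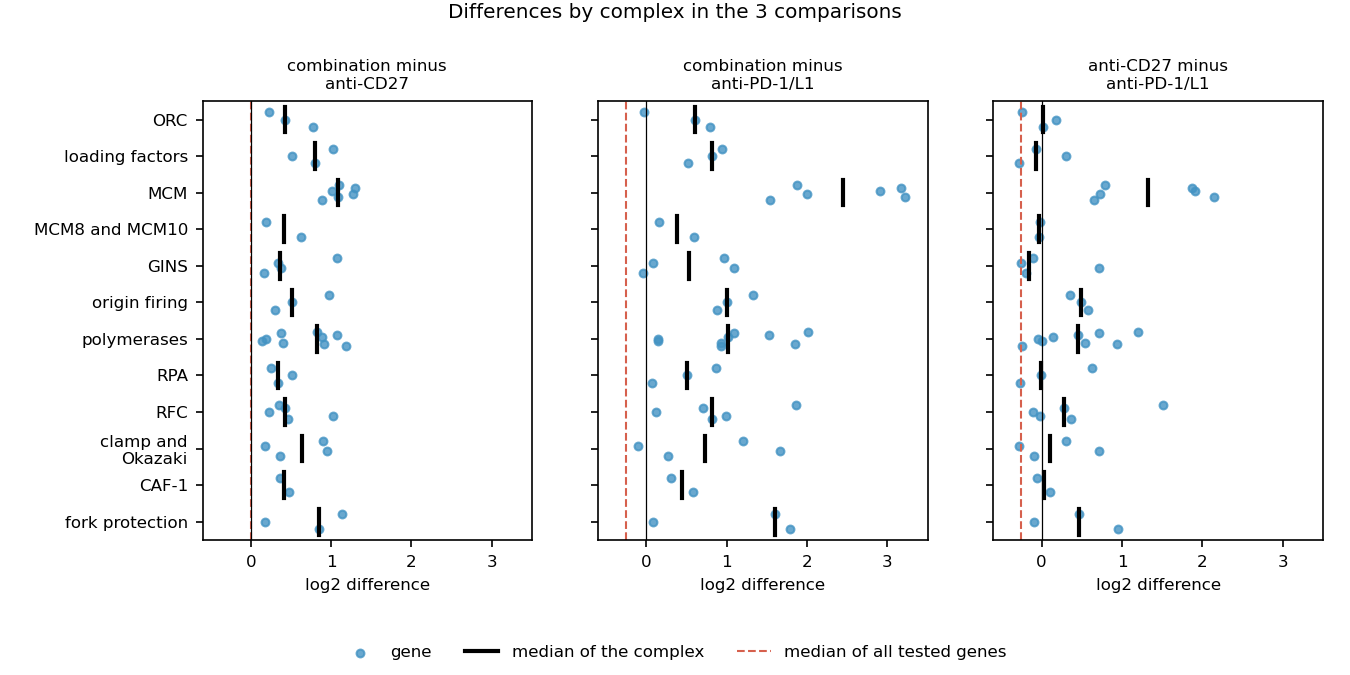
Log2 differences of the replication genes by complex (rows) in the 3 comparisons (panels), each the first-named group minus the second, with 1 point per gene, the median of the complex as a black bar and the median of all tested labels as a dashed line. The MCM ring has medians of 1.09, 2.45 and 1.33, the highest of any complex in each panel.

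Anti-CD27 against anti-PD-1/L1 divided the machinery. Of the 47 genes 23 rose and 5 fell, where 17.2% of all labels rose and 53.2% fell, and 19 did not pass. The median was 0.28, beside -0.26 over all labels. Arrays did not overlap in 23 genes that were higher (17.5% of all labels) and 9 that were lower (54.8%). The MCM ring rose in 6 of 6 genes, with a median of 1.33 and Mcm6 at 2.14 ± 0.09 (adjusted p = 4.49e-07), Mcm4 at 1.90 ± 0.10 and Mcm3 at 1.87 ± 0.09. Rfc1 rose by 1.51 ± 0.05, Pola1 by 1.20 ± 0.10 and Rpa1 by 0.63 ± 0.09. The genes that fell were Fen1 (-0.28 ± 0.08), Rpa3 (-0.27 ± 0.07), Gins2 (-0.25 ± 0.09), Gins4 (-0.20 ± 0.08) and Orc1, which was below background in both groups. The direction of these 5 depended on the scaling. Centring arrays on their medians adds the same 0.36 to every difference here, the gap between the medians of all labels, so that each of the 5 turned positive by construction (0.079 to 0.16). After repeated quantile normalization 7 of the 47 genes were called lower, among them Gins2 (-0.33), Gins4 (-0.60) and Fen1 (-0.34), while Rpa3 (-0.010) and Orc1 (0.14) did not pass. With the positive controls of each array as a covariate, 0 of the 47 were called lower by limma, and Fen1 and Orc1 were positive (0.35 and 0.12).

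Over the 3 groups, 29 genes had the order combination, anti-CD27, anti-PD-1/L1 from high to low, among them the whole MCM ring. Another 15 had the order combination, anti-PD-1/L1, anti-CD27, such as Cdc6, Pole2, Rfc4 and Gmnn. In 6 of these 15 (Gmnn, Gins2, Pold1, Rpa3, Timeless and Dna2) the anti-CD27 arrays all lay below the anti-PD-1/L1 arrays, and in the other 9 they overlapped. For Gins4, Fen1 and Orc1 anti-PD-1/L1 was highest, overlapping the combination in each. The place of anti-PD-1/L1 in these orders depended on the scaling. Centring arrays on their medians adds one constant to every difference. All 47 genes were then higher in anti-CD27, and in the combination, than in anti-PD-1/L1.

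Comparisons with anti-PD-1/L1 moved with the level of a probe set over all labels, and the replication genes sit in the upper range of levels. All labels were split by level into 10 bins of equal size. In the bin around a level of 4.06, the median difference of the combination from anti-PD-1/L1 was -0.48, and in the bin around 6.22 it was 0.43. Of the 47 genes, the most (16) lay in the bin around 5.43, where the median of all labels was 0.07. Another 13 lay in the bin around 6.22, 5 in the top one, where the median was 0.38, and the remaining 13 in lower bins. Spearman's rho between level and difference was 0.36 over the 47 genes and 0.28 over all labels, as a description across genes that share arrays. For the combination against anti-CD27 the medians of the bins lay between -0.02 and 0.06. With the positive controls of each array as a covariate, 7 genes rose against anti-PD-1/L1 (Mcm3, Mcm4, Mcm6, Cdt1, Pola1, Rfc1 and Wdhd1) and 28 against anti-CD27, where the same fit called 6.27% and 2.18% of all labels in either direction. Treatment and the array differences of the anti-PD-1/L1 group cannot be told apart in this design.

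**Figure D5:**
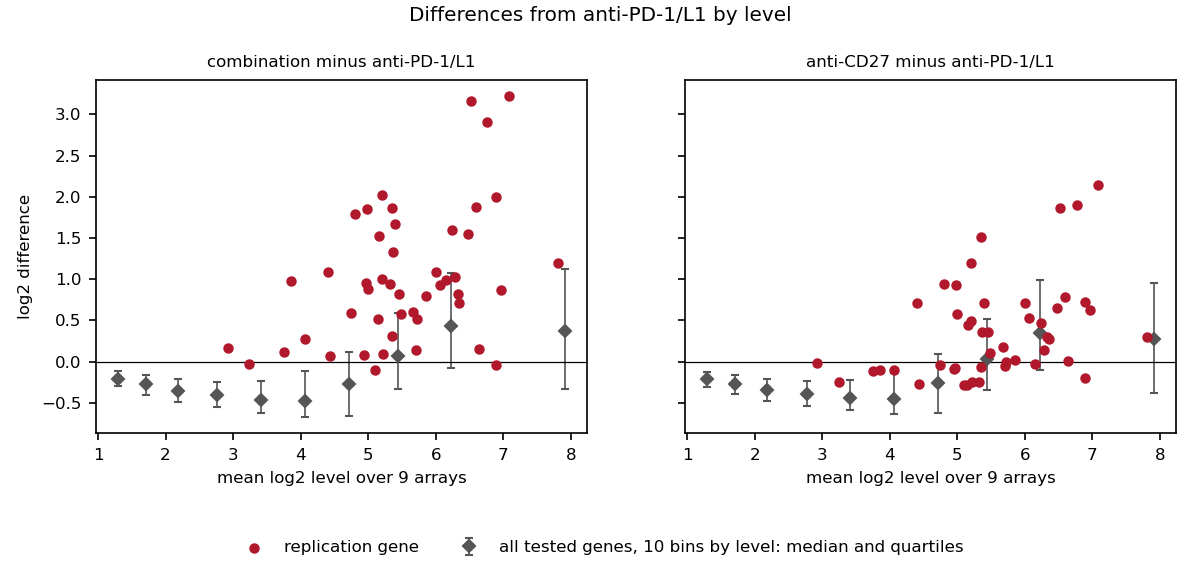
Log2 difference from anti-PD-1/L1 (vertical axis) of the combination (left) and of anti-CD27 (right), against the mean log2 level over 9 arrays (horizontal axis). Red points are the 47 replication genes and grey diamonds are the medians of all labels in 10 bins by level, with bars for the quartiles. The median of all labels lies below 0 in the lower bins and above 0 in the 3 highest.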

How the data were processed

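Transcripts were measured on 9 whole-transcript arrays, labelled from 50 ng of RNA, with 3 mice in each of 3 groups taken from the treatment labels. The authors deposited log2 values per probe set, for which the submitters' processing notes name RMA and oligo 1.38.0. For the probe sets, the genome build is not given in the sources used here. Of 72688 probe sets, 6732 were controls, 31238 named 1 gene, 1512 several and 33206 none, by the platform annotation with symbols updated through a RefSeq gene table. One probe set per gene label, that with the highest mean, gave 32107 tested labels with no filter on low values.

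A model with 3 group means was fitted with limma 3.58.1 in R 4.3.3 (6 residual degrees of freedom), two-sided, with Benjamini-Hochberg adjustment over all labels. The number of mice limits the precision. Alternatives were other normalizations, filters, covariates, variance models, a replicate block and leaving out each array.

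The deposited values were identical on 2 or 3 arrays of a group in 24.3% of labels for the combination, 33.8% for anti-CD27 and 4.30% for anti-PD-1/L1, and the cause was not tested. Of the 47 genes, this touched 1 on combination arrays, 16 on anti-CD27 arrays and 8 on anti-PD-1/L1 arrays, which narrows their spread. An alternative chosen after seeing the data, with the spread taken from groups without such values, called 29 genes for the combination against anti-CD27 and lost Dna2.

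The genes and lists were chosen with earlier results of these data known. Named were all 47 genes, every called member of the further replication factors, up to 4 called members of each other list, and 7 genes by name. Array values are printed for the genes with the largest and the smallest difference in each complex, and for some others singled out in the text.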

Additional observations from a re-analysis of the deposited data

How the results depend on the processing

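In the combination against anti-CD27, every one of the 47 genes that had a value kept a positive difference under the alternatives run. The count of genes that rose was 27 to 39 over the alternatives that kept all arrays and 15 to 32 over those that left out 1 array, and 0 fell in any. The median was 0.43 after repeated quantile normalization and 0.46 to 0.56 with 1 array left out. Calls over all labels, 554 as reported, numbered 1718 with the 6 arrays alone, 2646 with array weights and 164 to 1255 with 1 array left out. Replicate numbers did not pair the samples (correlations of same-numbered arrays between -0.19 and 0.16). With the replicate block 27 genes were called for the combination against anti-CD27, beside 1.18% of all labels. In the comparisons of the combination and of anti-CD27 with anti-PD-1/L1 it called 37 and 27, beside 70.3% and 68.4% of all labels.

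Comparisons with anti-PD-1/L1 depended on scaling and the covariate. For the combination, calls over all labels were 23112 (72% of those tested) as reported and 2014 (6.27%) with the positive control covariate. They were 12400 (77.2%) without the 50% of labels with the lowest means and 42358 (64.2%) with every transcript probe set, where the number tested changed. The median of the 47 genes was 0.72 after quantile normalization, 1.30 centred on array medians, 0.65 with the covariate and 0.83 to 0.98 with 1 array left out. Genes that rose numbered 7 with the covariate, and 2 fell after quantile normalization and 0 to 1 with 1 array left out. Those last fits called 51.9% and 64.2% to 73.3% of all labels in either direction. The covariate gave Gins3 -0.42, Rpa1 -0.0064, Orc6 -0.093 and Tipin -0.11.

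For anti-CD27 the calls were 22600 (70.4%) as reported, 2552 (7.95%) with the covariate, 11918 (74.2%) without the lowest labels and 42213 (64%) with every probe set. The median was 0.64 centred, 0.10 with the covariate and 0.20 to 0.29 with 1 array left out. Of the 47 genes, centring called 39 higher and 0 lower (54.8% of all labels called in either direction), quantile normalization 20 and 7 (50.3%), the covariate 3 and 0 (7.95%), a share of members near that of all labels, and array weights 22 and 2 (66.1%). Leaving out 1 array called 3 to 6 lower (61.7% to 72% of all labels called in either direction). Quantile normalization gave Pcna -0.061, Cdt1 -0.057 and Orc1 0.14. Centring gave Gins2 0.11, Gins4 0.16, Rpa3 0.092, Fen1 0.079 and Orc1 0.11. The covariate gave Pcna -0.19, Gins3 -0.64, Pold3 -0.12, Rfc5 -0.14, Rpa1 -0.17, Fen1 0.35, Orc1 0.12, Orc2 -0.071 and Tipin -1.08. Centring adds one constant to every difference, which fixes its reversals, and the other causes were not tested. Of the genes not called, 7 of 10 for the combination and 17 of 19 for anti-CD27 changed sign in some alternative.

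Signal over background limits the lower levels: 1 of the 47 genes on combination arrays, 2 on anti-CD27 arrays and 8 on anti-PD-1/L1 arrays were not above the mean of the background controls. For the 95th percentile of these 23 controls, there were 36 such genes on combination arrays, 43 on anti-CD27 arrays and 47 on anti-PD-1/L1 arrays.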

Other observations

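The lists beside the replication machinery also differed from anti-PD-1/L1. In the combination, 26 of the 38 further replication factors rose and 5 fell (median 0.67), 15 of 18 nucleotide supply genes rose and 1 fell (median 0.72), and 23 of 26 G2/M and mitosis genes rose and 0 fell (median 1.44). The housekeeping list did so in 12 of 13 genes, with 1 lower and a median of 0.75. Over all labels, 19.1% rose and 52.9% fell in this comparison, with a median of -0.25. Mki67 rose by 3.98 ± 0.35 (adjusted p = 2.05e-05) and Top2a, the topoisomerase of S phase and mitosis, by 3.69 ± 0.28 (adjusted p = 1.04e-05). In anti-CD27 against anti-PD-1/L1 those genes rose by 2.90 ± 0.35 and 2.88 ± 0.28. E2f1 had a difference of -0.36 ± 0.06 (adjusted p = 0.000940), where 17.2% of all labels rose and 53.2% fell. That difference is of the size of the gap between the array medians of these groups (-0.36), which centring removes. The anti-PD-1/L1 arrays are the ones whose control probe sets differed, and the part of that difference in these values was not tested.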
